A study of Mus musculus with 20 samples.

Results

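The genes described here are 9 collagen genes of the kidney interstitium (*Col1a1*, *Col1a2*, *Col3a1*, *Col5a1*, *Col5a2*, *Col6a1*, *Col6a2*, *Col6a3* and *Col12a1*) and *Lox*, the gene of lysyl oxidase. They were chosen by name, 10 of the 24411 gene symbols in the count table, and all 10 were measured well enough to enter every comparison. Kidney RNA of 20 C57BL/6 mice was sequenced in bulk at P125, as 4 groups of 5: male controls (MC1 to MC5), male mutants (MM1 to MM5), female controls (FC1 to FC5) and female mutants (FM1 to FM5). Every mouse carried *Pkd2* fl/fl, and every mouse received doxycycline (DOX) at 50 mg per kg each day from P27 to P29. Mutants also carried *Pax8* rtTA and *TetO* Cre, while controls lacked either of those transgenes. The *Pax8* promoter drives the transactivator in the epithelium of all tubule segments, so the deletion was directed to tubule cells and not to the interstitial cells that make most of these collagens. They belonged to 3 litters (A, B, C), spread unevenly over the groups. The measure of cystic enlargement was kidney weight as a percentage of body weight (KBW), for which the authors used 1 kidney per mouse. KBW ranged from 0.555% to 0.896% in controls, from 1.22% to 2.15% in male mutants and from 0.836% to 1.46% in female mutants.

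Fibrillar collagens are secreted as procollagen chains that wind into triple helices, are trimmed outside the cell and then line up into fibrils. Type I collagen is built from the chains of *Col1a1* and *Col1a2*, and type III collagen, a homotrimer of the *Col3a1* chain, forms thinner fibrils beside it. Type V chains (*Col5a1*, *Col5a2*) sit inside type I fibrils and start their assembly, type VI chains (*Col6a1*, *Col6a2*, *Col6a3*) form beaded filaments around cells, and type XII collagen (*Col12a1*) binds to fibril surfaces. *Lox* oxidises lysines of collagen and elastin, which cross-links them. In kidney these genes are known mainly from fibroblasts, pericytes and myofibroblasts, and their accumulation is the hallmark of interstitial fibrosis, which accompanies polycystic kidney disease.

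On GRCm38, the build named mm10 in the submitters' processing notes, *Col3a1* lies on chromosome 1 from 45311538 to 45349706 on the plus strand, and *Col5a2* follows it from 45374321 to 45503282 on the minus strand. The 3' ends of these neighbours are 24614 bases apart with 0 annotated genes between them. *Col6a3* is on chromosome 1 from 90765923 to 90843971. *Col6a2* (76595762 to 76623630) and *Col6a1* (76708792 to 76726168) are on the same strand of chromosome 10, 85161 bases apart. *Col1a1* lies on chromosome 11 from 94936224 to 94953042, *Col1a2* on chromosome 6 from 4504814 to 4541544, *Col5a1* on chromosome 2 from 27886425 to 28039514 and *Col12a1* on chromosome 9 from 79598991 to 79718831. The annotation (GENCODE) places genes of the opposite strand inside *Col5a1*, *Col12a1* and *Lox*. The strand setting of the counting is not given in the sources used here, so reads of those overlapping genes cannot be told apart from reads of the 3 members. Annotated genes of the same strand overlap *Col1a2*, *Col3a1*, *Col5a2* and *Col6a3*, and a strand setting alone would not separate their reads.

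Many collagen transcripts carry sites for the miR-29 family, a known repressor of matrix genes, and these sequences show which of the 10 share such a site. The mature miRNAs, from RefSeq on GRCm38.p6, have an identical seed at bases 2 to 8, in capitals:
mmu-miR-29a-3p: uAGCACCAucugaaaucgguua
mmu-miR-29b-3p: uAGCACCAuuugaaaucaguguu
mmu-miR-29c-3p: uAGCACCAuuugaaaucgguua
A match to that seed, TGGTGCT read on the transcript strand, was found in the 3' UTR of 7 of the 10 genes and in 13.7% of the 13157 tested genes that have an annotated 3' UTR. Among tested genes with a UTR as long as those of the members, 451 to 3160 bases, the share was 13.8%. The 10 genes were chosen as collagens, so the count describes them and was not tested. Each line gives 1 site with its match in capitals:
*Col1a1*: gaatttcTGGTGCTatagaag
*Col3a1*: gtctcaaTGGTGCTataataa
*Col5a1*, the site nearest the stop codon: gaacattTGGTGCTgaatttt
*Col5a2*: ttaatgaTGGTGCTaaaatta
*Col6a2*: ccatctgTGGTGCTaatagga
*Col6a3*: gtcaataTGGTGCTaaatgtg
*Col5a1* had 4 sites and *Lox* had 3, while *Col1a2*, *Col6a1* and *Col12a1* had 0. Genes with and without a site were found both among those that rose in mutants and among those that did not pass the test. No miRNA was measured in these libraries.

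The targeted gene was checked first. *Pkd2*, whose floxed allele is deleted in mutants, was at 193 to 332 CPM (read counts scaled by the TMM size of each library) in controls and at 94.7 to 182 CPM in mutants, with no overlap (joint log2 fold change −1.06, SE 0.120, adjusted p = 9.7e-06). Within females alone it missed the threshold (−0.80, adjusted p = 0.028), and without FM4 it passed (−0.91, adjusted p = 0.0091). Library totals ranged from 11307741 to 19324073 counts. The library of FM4 stood apart, with 14850 genes detected against 16776 or more in each of the others. Values without it are given within females, between mutant sexes, for the sex by genotype term and for KBW. The joint comparison and the ratios were run without each mouse in turn, FM4 included. Levels, gene pairs, similar genes, lists and markers are given with FM4 only. Since these are bulk libraries, more cells of a type and more RNA per cell cannot be told apart.

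When mutants of both sexes were set against controls of both sexes (the joint comparison), 6 of the 10 genes rose and the other 4 did not pass the test. The 6 that rose were *Lox*, *Col12a1*, *Col3a1*, *Col1a1*, *Col1a2* and *Col5a1*, by 1.88-fold to 4.95-fold. The second type V chain and all 3 type VI chains had log2 fold changes between −0.07 and 0.32. A gene was called at an adjusted p under 0.01 in edgeR's quasi-likelihood test, with the groups of sex and litter in the model. Of the 14191 genes tested, 10.0% were called higher and 5.86% lower. The median log2 fold change of the 10 members was 1.07, beside −0.01 for all genes tested. The same 6 genes were called in each of the 20 fits that left out 1 mouse, beside 7.23% to 12.5% of all genes called higher. They were also called in all 5 other settings tried, beside 7.60% to 10.8%.

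**Figure D1:**
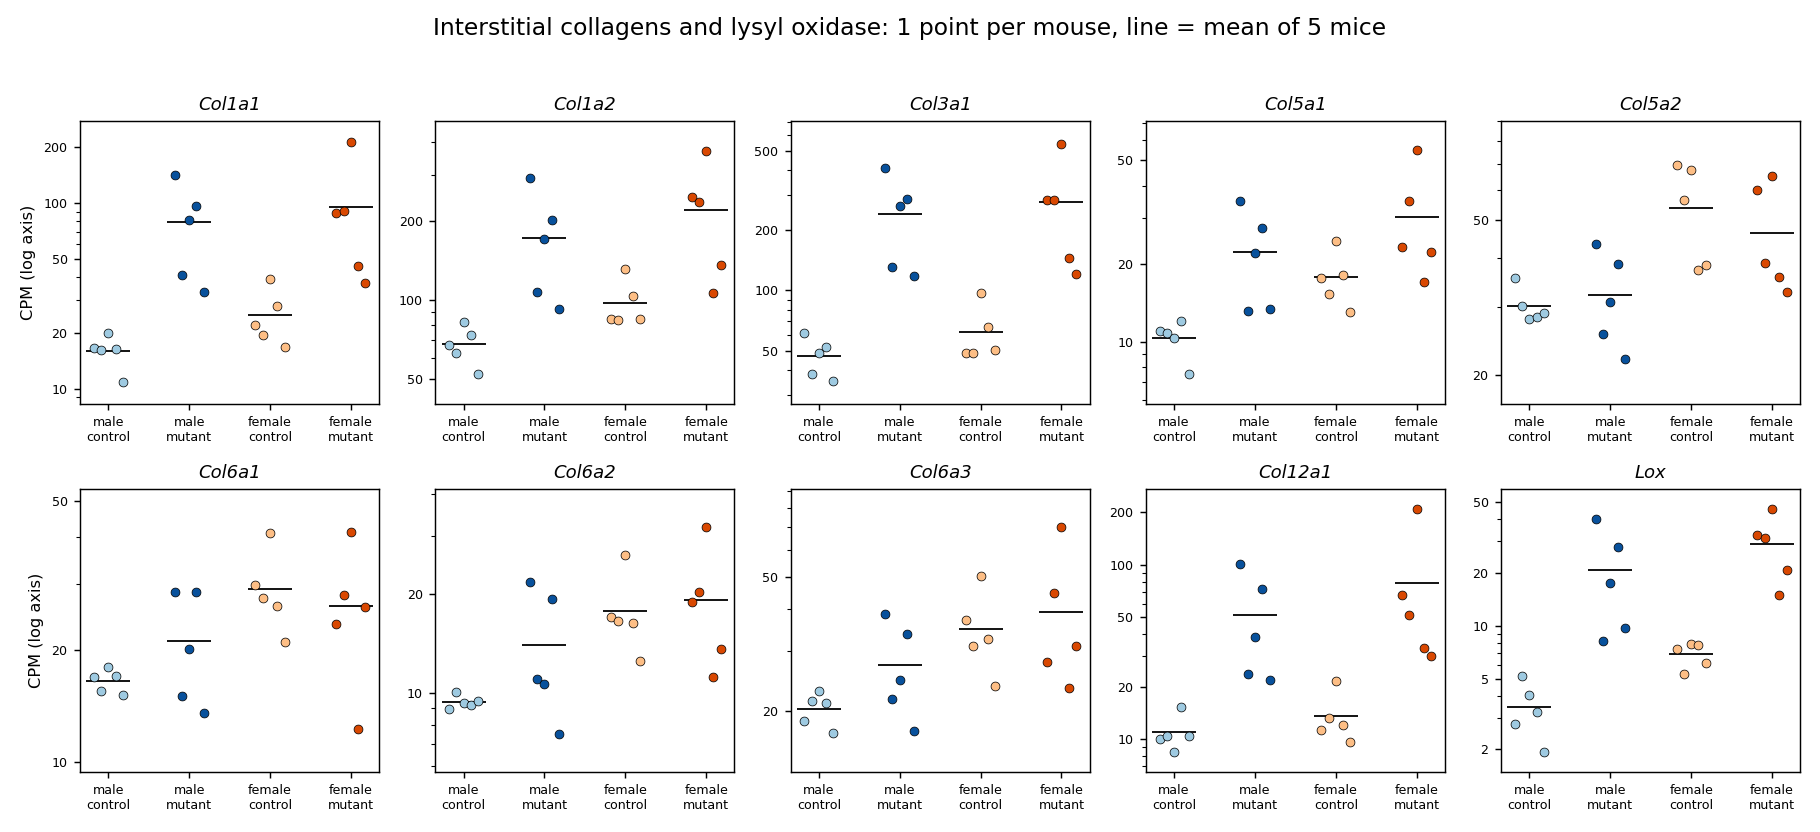
CPM of each of the 10 genes on a log axis, with 1 point per mouse and a line at the mean of the 5 mice of a group (male control, male mutant, female control, female mutant). The mutants of *Col3a1*, *Col12a1* and *Lox* all lie above the controls, whereas those of *Col5a2* and the type VI genes overlap with the controls.

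*Lox* rose by the largest factor of the 6, with *Col12a1* close behind. In male controls (MC1 to MC5) it had 2.78, 5.21, 4.06, 3.25 and 1.93 CPM, and in male mutants (MM1 to MM5) it had 40.2, 8.13, 17.5, 27.8 and 9.65 CPM. Female controls (FC1 to FC5) had 7.38, 5.29, 7.90, 7.80 and 6.15 CPM, against 32.8, 31.6, 45.8, 14.9 and 20.8 CPM in female mutants (FM1 to FM5). Every mutant was above every control, although the lowest mutant, MM2, at 8.13 CPM, was close to the highest control, FC3, at 7.90 CPM. The joint log2 fold change was 2.31 (SE 0.257, adjusted p = 7.8e-06).

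*Col3a1* had the highest level per kilobase in mutants. Male controls had 61.2, 38.3, 48.5, 52.2 and 35.3 CPM and male mutants 410, 130, 265, 287 and 118 CPM. Female controls had 48.9, 48.5, 96.8, 65.7 and 50.2 CPM and female mutants 285, 284, 543, 146 and 120 CPM. The groups did not overlap, with a gap from 96.8 CPM in FC3 to 118 CPM in MM5. Its log2 fold change was 2.20 (SE 0.239, adjusted p = 6.4e-06), the smallest adjusted p of the 10.

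*Col1a1* had 16.6, 16.1, 20.0, 16.3 and 10.8 CPM in male controls and 142, 41.1, 80.7, 97.0 and 33.1 CPM in male mutants. In female controls it had 22.0, 19.4, 38.8, 27.9 and 16.8 CPM and in female mutants 88.0, 90.4, 214, 45.6 and 37.2 CPM. Of the 10 mutants, 8 lay above every control, and MM5 and FM5 lay just under the highest control, FC3. The log2 fold change was 2.05 (SE 0.260, adjusted p = 2.5e-05). Its partner chain, *Col1a2*, changed less, with 67.5, 62.8, 82.6, 73.7 and 52.2 CPM in male controls and 292, 107, 170, 201 and 92.2 CPM in male mutants. Female controls had 84.3, 83.5, 131, 103 and 84.5 CPM of *Col1a2* and female mutants 247, 237, 370, 106 and 135 CPM. Here 7 of the 10 mutants were above every control, and the log2 fold change was 1.23 (SE 0.198, adjusted p = 1.9e-04).

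*Col12a1* had 10.0, 10.5, 8.49, 15.3 and 10.5 CPM in male controls and 101, 23.7, 38.4, 72.4 and 22.0 CPM in male mutants. Female controls had 11.3, 13.3, 21.6, 12.0 and 9.64 CPM and female mutants 67.4, 51.3, 209, 33.4 and 30.0 CPM. The groups did not overlap, but the lowest mutant, MM5, was at 22.0 CPM and the highest control, FC3, at 21.6 CPM. With a log2 fold change of 2.30 (SE 0.332, adjusted p = 7.6e-05) it had the largest SE of the 10, and FM3 stood far above the next female mutant, FM1. Without FM3 the log2 fold change was 1.94 (adjusted p = 4.5e-05).

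*Col5a1* rose least of the 6. Male controls had 11.0, 10.9, 10.4, 12.1 and 7.52 CPM, male mutants 34.9, 13.1, 22.0, 27.5 and 13.4 CPM, female controls 17.7, 15.3, 24.5, 18.1 and 13.1 CPM and female mutants 23.3, 34.8, 54.7, 17.0 and 22.3 CPM. Male mutants were all above male controls, whereas female mutants overlapped with female controls. The log2 fold change was 0.91 (SE 0.188, adjusted p = 0.0015).

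Of the 4 genes that did not pass, *Col5a2* had 35.5, 30.2, 27.9, 28.2 and 28.9 CPM in male controls and 43.4, 25.5, 30.8, 38.6 and 21.9 CPM in male mutants. It had 69.4, 56.3, 67.3, 37.3 and 38.3 CPM in female controls and 60.0, 38.8, 65.0, 35.8 and 32.7 CPM in female mutants, so that none of the 10 mutants lay above the highest control. Its log2 fold change was −0.07 (SE 0.136, adjusted p = 0.75). *Col6a1* ranged from 15.1 to 41.1 CPM in controls and from 12.2 to 41.5 CPM in mutants, with a log2 fold change of 0.08 (SE 0.183, adjusted p = 0.79). For *Col6a2* (8.93 to 26.1 CPM in controls, 7.50 to 31.9 CPM in mutants) it was 0.32 (SE 0.190, adjusted p = 0.23), and for *Col6a3* (17.1 to 50.2 CPM in controls, 17.4 to 70.0 CPM in mutants) it was 0.29 (SE 0.171, adjusted p = 0.23). In all 3 type VI genes, 1 of the 10 mutants, FM3, was above every control.

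Over the 3 genes *Col3a1*, *Col12a1* and *Lox*, all 10 mutants lay above all 10 controls, a separation shown by 0.979% of the genes tested. Within litters, the difference in mean log2 CPM between mutants and controls of the same sex was above 0 for all 6 called genes in each of the 6 combinations of sex and litter. It ranged from 0.40 to 2.72. For the 4 genes that were not called, these differences ran from −0.42 to 0.70. All 4 were above 0 in males of litters A and B, and 1 to 3 of the 4 in the other combinations. *Col6a2* was below 0 only in males of litter C (−0.33), and *Col6a3* only in females of litter A (−0.42). The combinations in litter C and in females of litter A rest on 1 mutant and 1 control each.

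Summed over the 10 genes, the share of all counts was 0.0218% ± 0.00263 (SD, n = 5) in male controls and 0.0666% ± 0.0339 in male mutants. In females it was 0.0367% ± 0.0102 in controls and 0.0961% ± 0.0620 in mutants. The spread was thus much wider in mutants, with a range in females from 0.0457% to 0.199%.

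Levels were compared between genes only per kilobase of annotated exon. In controls, *Col1a2* (6.64 CPM per kilobase ± 1.78, SD, n = 10) and *Col3a1* (5.56 ± 1.77) were highest, and *Lox* (1.08 ± 0.449) and *Col12a1* (0.805 ± 0.250) were lowest. In mutants the order was *Col3a1* (26.4 ± 14.2), *Col1a2* (15.8 ± 7.34) and *Col1a1* (13.2 ± 8.57), and *Col12a1* reached 4.26 ± 3.71. Between them in controls came *Col6a1* (5.20 ± 1.90), *Col5a2* (4.37 ± 1.69), *Col1a1* (3.12 ± 1.19), *Col6a3* (2.30 ± 0.859), *Col5a1* (1.65 ± 0.582) and *Col6a2* (1.63 ± 0.663), and no neighbours in this order were further apart than the larger of their SDs. The same held among the first 3 places in mutants. These first and last places stayed the same when the length of 1 coding transcript per gene was used, an alternative chosen after seeing the data, while the middle of the order changed. The levels themselves moved more, for *Col1a2* to 15.4 in controls and 36.6 in mutants, for *Col3a1* to 9.80 and 46.5, and for *Col6a2* to 3.43 and 4.20.

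To see whether chains of the same collagen kept their proportions, ratios of read counts were taken within each library. The size of such a ratio depends on gene lengths, and only its change between groups was compared, by exact permutation of genotype within each sex (63504 relabellings, two-sided, p adjusted over the 6 ratios). The *Col1a2* to *Col1a1* ratio was 4.29 ± 0.378 (SD, n = 5) in male controls, 2.32 ± 0.348 in male mutants, 4.05 ± 0.641 in female controls and 2.62 ± 0.696 in female mutants. It fell by 0.77 on the log2 scale (SE 0.114, exact permutation adjusted p = 3.8e-04), and all mutants except FM5, at 3.64, lay below all controls. The *Col5a2* to *Col5a1* ratio was 2.97 ± 0.581 in male controls, 1.52 ± 0.272 in male mutants, 3.07 ± 0.750 in female controls and 1.69 ± 0.630 in female mutants. It fell by 0.93 (SE 0.166, exact permutation adjusted p = 3.8e-04). All mutants except FM1, at 2.57, and FM4, at 2.11, lay below the lowest control, FC4, at 2.06. Both falls held in each of the 20 sets with 1 mouse left out and when genotype was relabelled within sex and litter.

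The other 4 ratios did not pass the threshold of 0.01. *Col3a1* to *Col1a1* differed by 0.20 (SE 0.084, exact permutation adjusted p = 0.042), *Col6a2* to *Col6a1* by 0.23 (SE 0.092, exact permutation adjusted p = 0.042) and *Col6a3* to *Col6a1* by 0.20 (SE 0.080, exact permutation adjusted p = 0.042). *Lox* to *Col1a1* differed by 0.28 (SE 0.167, exact permutation adjusted p = 0.10). Leaving out FM5 brought *Col6a2* to *Col6a1* past the threshold (0.29, exact permutation adjusted p = 0.0052). The ratio of *Col3a1* to *Col1a1* stayed between 2.23 and 3.68 in every library, while *Col1a1* itself ran from 10.8 to 214 CPM and *Col3a1* from 35.3 to 543 CPM.

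**Figure D2:**
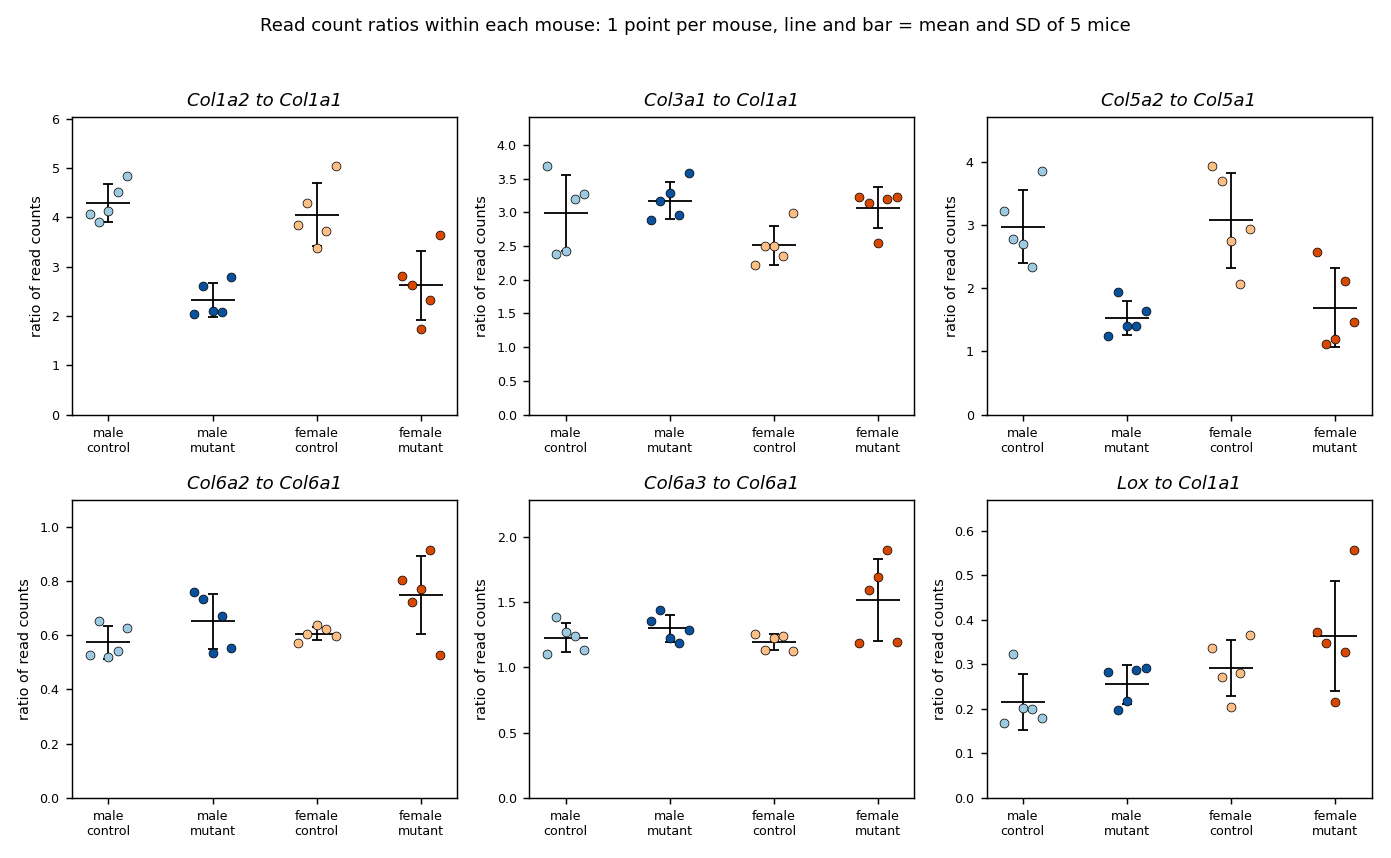
Ratio of read counts of 2 genes within each library on a linear axis that starts at 0, with 1 point per mouse and the mean and SD of the 5 mice of each group. The *Col1a2* to *Col1a1* and *Col5a2* to *Col5a1* ratios are lower on average in mutants of both sexes, with some female mutants among the controls. The other 4 ratios overlap widely.

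Known promoter motifs are shown for 3 genes to set a collagen that rose beside one that did not. The 250 bases before the RefSeq start (GRCm38.p6) were searched on both strands. The TATA box letters TATAAA were held by 12.4% of 32851 promoters of that length, the CCAAT box by 33.8% and the GC box letters GGGCGG by 32.7%. Matches are in capitals:
*Col1a2*, chr6:4505368-4505617, plus strand: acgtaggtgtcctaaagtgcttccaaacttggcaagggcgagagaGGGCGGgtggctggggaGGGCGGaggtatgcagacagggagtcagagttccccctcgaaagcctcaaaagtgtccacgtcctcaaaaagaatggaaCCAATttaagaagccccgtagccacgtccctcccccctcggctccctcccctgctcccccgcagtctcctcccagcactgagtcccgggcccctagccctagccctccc
*Col3a1*, chr1:45311288-45311537, plus strand: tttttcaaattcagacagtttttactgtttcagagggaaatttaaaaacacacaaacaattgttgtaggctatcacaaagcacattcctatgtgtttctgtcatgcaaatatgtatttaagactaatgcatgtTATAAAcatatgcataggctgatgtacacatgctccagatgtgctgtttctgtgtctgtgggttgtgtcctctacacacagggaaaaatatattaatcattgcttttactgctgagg
*Col6a1*, chr10:76726045-76726294, minus strand: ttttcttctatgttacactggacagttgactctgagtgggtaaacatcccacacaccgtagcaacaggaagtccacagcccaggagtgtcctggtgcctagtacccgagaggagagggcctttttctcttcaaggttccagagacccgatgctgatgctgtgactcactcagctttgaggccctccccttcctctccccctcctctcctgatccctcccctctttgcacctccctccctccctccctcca
*Col1a2* had 1 match to CCAAT and 2 to GGGCGG, *Col3a1* had 1 to TATAAA and *Col6a1* had 0. *Col5a1* had 2 matches to GGGCGG and *Col6a3* had 0. *Col6a2*, with 2 RefSeq starts, had 3 matches to GGGCGG before one, of which 2 overlap, and 1 before the other. *Col1a1*, *Col5a2*, *Col12a1* and *Lox* were not searched here. A match describes letters and not a bound site.

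Compared within each sex, males gave the same calls as the joint comparison: 6 of 10 genes were called higher in male mutants, beside 5.25% of 14010 genes. The log2 fold changes were 2.59 for *Lox* (SE 0.390, adjusted p = 0.0018, edgeR), 2.29 for *Col3a1* (SE 0.271, adjusted p = 6.2e-04), 2.25 for *Col1a1* (SE 0.289, adjusted p = 7.9e-04) and 2.13 for *Col12a1* (SE 0.386, adjusted p = 0.0039). *Col1a2* and *Col5a1* had 1.31 (SE 0.229, adjusted p = 0.0034) and 1.06 (SE 0.221, adjusted p = 0.0074). For these 6, all male mutants lay above all male controls, which was the case for 8.75% of genes. Not called were *Col6a2* (0.54, SE 0.243, adjusted p = 0.14), *Col6a3* (0.41, SE 0.165, adjusted p = 0.11), *Col6a1* (0.30, SE 0.181, adjusted p = 0.27) and *Col5a2* (0.07, SE 0.160, adjusted p = 0.80). With all 20 mice in 1 fit *Col5a1* was no longer called (adjusted p = 0.012). The count fell to 3 without MC1, MC2 or MC3, beside 2.26%, 2.42% and 1.93% of all genes called higher. It fell to 2 (*Col1a1* and *Col3a1*) without MC4, beside 0.784%.

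In females, 1 gene was called, beside 0.457% of 14439 genes: *Lox*, with a log2 fold change of 2.10 (SE 0.278, adjusted p = 0.0056, edgeR). *Col12a1* had 2.49 (SE 0.478, adjusted p = 0.019), *Col3a1* 2.13 (SE 0.355, adjusted p = 0.012), *Col1a1* 1.89 (SE 0.384, adjusted p = 0.022), *Col1a2* 1.18 (SE 0.295, adjusted p = 0.043) and *Col5a1* 0.80 (SE 0.277, adjusted p = 0.12). *Col6a3* had 0.20 (SE 0.275, adjusted p = 0.76), *Col6a2* 0.15 (SE 0.256, adjusted p = 0.81), *Col6a1* −0.10 (SE 0.279, adjusted p = 0.90) and *Col5a2* −0.18 (SE 0.200, adjusted p = 0.69). All female mutants lay above all female controls for *Col3a1*, *Col12a1* and *Lox*, as they did for 3.73% of genes. Without FM4, the library that stood apart, 5 genes were called, beside 4.68% of all genes: *Lox* (2.28, adjusted p = 4.0e-04), *Col3a1* (2.31, adjusted p = 0.0016), *Col1a2* (1.37, adjusted p = 0.0029), *Col1a1* (2.09, adjusted p = 0.0029) and *Col12a1* (2.71, adjusted p = 0.0031). The count was 2 (*Col12a1* and *Lox*) without FM3, beside 0.283% of all genes called higher. It was 0 in each of the 8 other fits that left out 1 female, beside 0.0206% to 0.185%.

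The difference between the male and the female change was tested directly. The sex by genotype term was called for 0 of the 10 genes and for 0% of 14820 genes (edgeR). At an unadjusted p under 0.05 it counted 0 of the 10 genes and 4.17% of all genes. The male minus female difference in log2 fold change ranged from −0.32 (SE 0.658) for *Col12a1* to 0.52 (SE 0.511) for *Lox*. The SE of this difference was 0.271 to 0.658 over the 10 genes. Without FM4 the difference ranged from −0.54 for *Col12a1* to 0.34 for *Lox*. Again 0 of the 10 genes were called, beside 0.0201% of all genes.

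**Figure D3:**
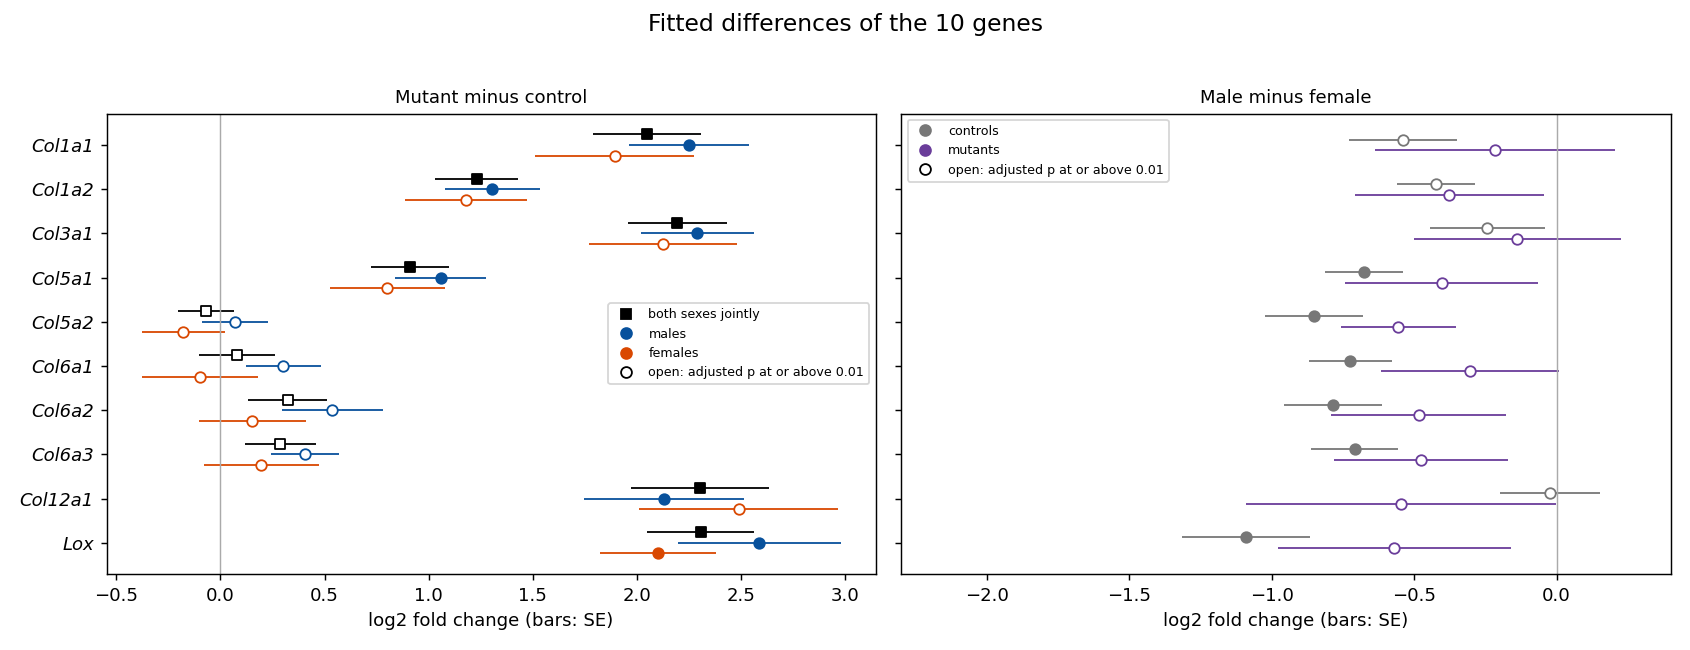
Fitted log2 fold changes of the 10 genes with their SE. The left panel gives mutants minus controls (both sexes jointly, males, females) and the right panel males minus females (controls, mutants), and filled symbols have an adjusted p under 0.01. On the left, all symbols of *Col5a2* and the type VI genes are open, with *Col6a2* at 0.54 and *Col6a3* at 0.41 in males. On the right, these genes, *Col5a1* and *Lox* have filled symbols below 0 in controls. The open symbols of the controls also lie below 0, with *Col1a1* at −0.54 and *Col1a2* at −0.42.

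Males and females also differed without the mutation, in a set of genes that shared only *Col5a1* and *Lox* with the 6 that rose in mutants. In male controls, 6 genes were lower than in female controls, beside 9.02% of 14123 genes: *Lox* (log2 fold change −1.09, SE 0.225, adjusted p = 0.0032, edgeR), *Col5a2* (−0.85, SE 0.173, adjusted p = 0.0029), *Col6a2* (−0.78, SE 0.173, adjusted p = 0.0048), *Col6a1* (−0.72, SE 0.146, adjusted p = 0.0027), *Col6a3* (−0.71, SE 0.152, adjusted p = 0.0040) and *Col5a1* (−0.68, SE 0.137, adjusted p = 0.0029). *Col1a1* had −0.54 (adjusted p = 0.050), *Col1a2* −0.42 (adjusted p = 0.035), *Col3a1* −0.24 (adjusted p = 0.40) and *Col12a1* −0.02 (adjusted p = 0.94). All female controls lay above all male controls for the 6 called genes and for *Col1a2*, a separation that 14.2% of genes showed. The difference was below 0 for each of the 6 genes within each litter, as it was for 10, 9 and 9 of all 10 genes in litters A, B and C. These litters held 3, 1 and 1 male controls and 1, 3 and 1 female controls. All 6 calls were lost without FC1 and without MC4, where 4.70% and 4.26% of all genes were called lower. With all 20 mice in 1 fit only *Col5a2* was called, beside 6.18% of all genes.

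In mutants, 0 of the 10 genes were called between males and females, beside 1.84% of 14416 genes called lower in males. All 10 log2 fold changes were below 0, from −0.57 (SE 0.409) for *Lox* to −0.14 (SE 0.363) for *Col3a1*, and *Col5a2* had the smallest adjusted p (−0.56, SE 0.202, adjusted p = 0.093). For 0 of the 10 genes did all female mutants lie above all male mutants, beside 5.33% of genes. Each comparison between the sexes shares its mice with the genotype comparisons: the controls in the first and the mutants in the second. Without FM4, 0 of the 10 genes were again called between mutant sexes, beside 2.72% of all genes called lower in males. *Col5a2* then had −0.63 (adjusted p = 0.040).

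Among the 10 mutants, the level of each gene was set against KBW. With sex in the model, all 10 slopes were above 0, from 0.96 (SE 0.324) log2 units per percentage point of KBW for *Col5a2* to 2.60 (SE 0.725) for *Col12a1*. None was called, and 0% of 14416 genes were. The adjusted p ranged from 0.044 for *Col1a2* (slope 1.82, SE 0.408) to 0.17 for *Col6a3*. At an unadjusted p under 0.05 all 10 genes passed, beside 22.3% of all genes. The 6 genes that rose in mutants had slopes of 1.59 to 2.60, and the other 4 had slopes of 0.96 to 1.22. Without FM4 the slopes ranged from 0.78 for *Col6a1* to 2.56 for *Col12a1*, with 0 called. With all mutants, DESeq2's Wald test called 2 of them, *Col1a2* and *Lox*, beside 4.03% of the 14544 genes to which it gave an adjusted p.

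These slopes depended on the sex term. Without it the slopes ranged from 0.07 to 1.15 and all adjusted p were 0.41 or more. Correlated directly with KBW over the 10 mutants, *Col3a1* had r = 0.50 (permutation p = 0.14, adjusted p = 0.48) and rho = 0.39 (permutation p = 0.26), the highest r of the 10 genes. *Col1a1* had r = 0.47 (permutation p = 0.18, adjusted p = 0.52) and rho = 0.38 (permutation p = 0.28), and *Lox* had r = 0.26 (permutation p = 0.46, adjusted p = 0.76) and rho = 0.31 (permutation p = 0.39). The lowest r was 0.03, for *Col5a2*. All of these tests were two-sided, and 0 of 14416 genes were called. Without FM4 alone, r ranged from −0.048 for *Col6a3* to 0.43 for *Col3a1*. Without MM1 and FM4, the mice farthest from the median KBW, r ranged from −0.27 to 0.26 and was above 0 for *Col3a1*, *Col1a1* and *Col12a1* only. With the mean of each sex subtracted, r ranged from 0.58 for *Col6a3* to 0.80 for *Lox*, with an adjusted permutation p of 0.11 to 0.26.

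**Figure D4:**
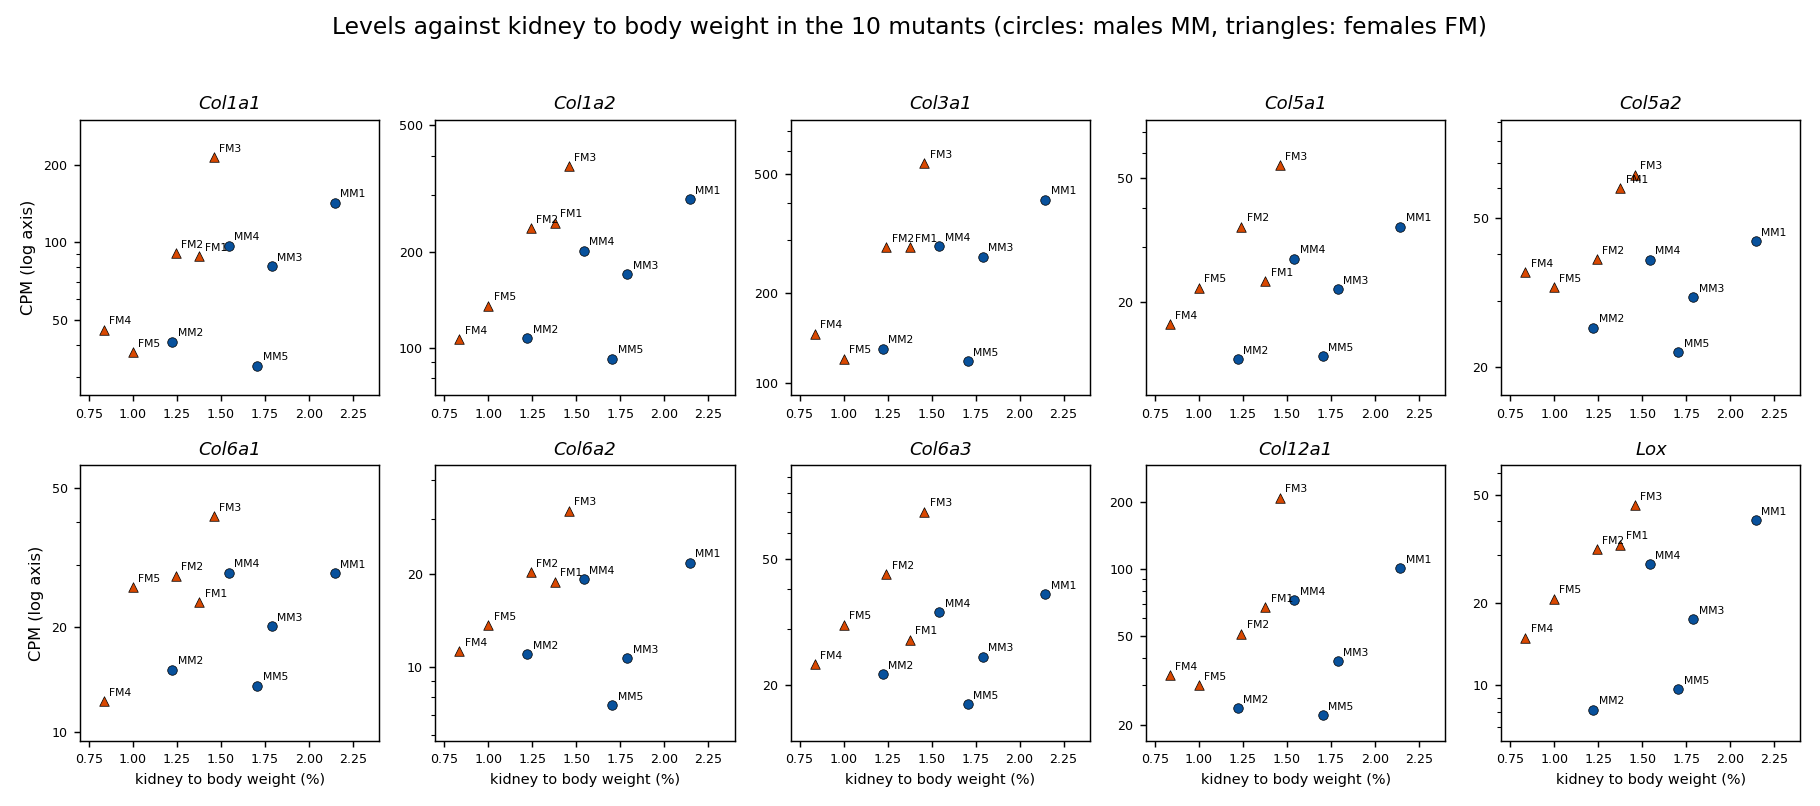
CPM on a log axis against kidney to body weight (%) in the 10 mutants, 1 point per mouse, with circles for males (MM) and triangles for females (FM). FM3 is the highest mutant in each panel at a KBW of 1.46%, and MM5 lies low at a KBW of 1.71%.

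FM3, with a KBW of 1.46%, had the highest level of every gene among the mutants, and MM1, with the largest KBW (2.15%), was the highest male in all but *Col6a1*. MM5 (KBW 1.71%) had 118 CPM of *Col3a1* and 33.1 CPM of *Col1a1*, the lowest of the mutants for both genes. MM5 and FM5 are the mutants of litter C, and without MM5 the direct r ranged from 0.21 to 0.69. In the 10 controls, whose KBW spans a narrow range, r was negative for all 10 genes. It ran from −0.76 (permutation p = 0.016, adjusted p = 0.41) for *Col1a1* to −0.27 (permutation p = 0.40, adjusted p = 0.74) for *Col12a1*. At an unadjusted permutation p under 0.05, 4 of the 10 genes passed, beside 10.6% of 14123 genes. These r pool the sexes. KBW was 0.599% to 0.896% in male controls and 0.555% to 0.672% in female controls, and all 10 genes had lower fitted levels in male controls. The part of sex in these r was not tested. For *Col1a1* in controls rho was −0.81 (permutation p = 0.0074), and r was −0.64 without MC5 and FC4. Without the same 2 mice *Lox* went from −0.70 to −0.097 and *Col5a1* from −0.70 to −0.41.

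Across the 10 mutants the 10 genes varied together. Over the 45 pairs, Pearson's r of log2 CPM ranged from 0.73 to 1.00 with a median of 0.89, as a description of 10 libraries that share kidney size, litter and composition. Pairs of 1 gene that rose and 1 that did not had a median r of 0.88, and pairs of 2 genes that rose had 0.94. The 4 genes that did not pass the genotype test thus varied with the other 6 from mouse to mouse.

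Genes with the most similar pattern were found from the mean standardised log2 CPM of the 10 genes. Over the 20 mice, the 5 most similar of 14810 other genes were *Col15a1* (r = 0.98), which encodes a basement membrane zone collagen, *Colec12* (r = 0.98), a scavenger receptor, *Itga3* (r = 0.98), a laminin-binding integrin chain, *P2rx7* (r = 0.97), an ATP-gated channel, and *Itpripl2* (r = 0.97). On deviations from group means, which remove sex and genotype, they were *Col15a1* (r = 0.98), *Itga3*, *Col4a2* (r = 0.97), *Colec12* and *Col4a1* (r = 0.96). *Col4a1* and *Col4a2* encode the common chains of basement membrane collagen. In the joint comparison *Col15a1* rose by 1.03 on the log2 scale (adjusted p = 8.0e-04, edgeR) and *Col4a1* by 0.88 (adjusted p = 3.6e-04).

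Other genes of collagen biology were counted by lists, beside 10.0% of all genes called higher and 5.86% called lower in the joint comparison. Of the other lysyl oxidases, 2 of 4 rose in the joint comparison, *Loxl2* (log2 fold change 1.08, adjusted p = 1.6e-04, edgeR) and *Loxl1* (0.63, adjusted p = 0.0040), while *Loxl3* had 0.41 (adjusted p = 0.21) and *Loxl4* 0.05 (adjusted p = 0.83). Of the other fibrillar and fibril-associated collagens, 8 of 15 could be tested, 1 rose and 1 fell. *Col14a1*, a fibril-associated collagen, rose by 0.76 (adjusted p = 2.0e-04), and *Col27a1* fell by 0.91 (adjusted p = 5.9e-04). The median of this list was −0.37.

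Of 19 tested enzymes and chaperones that prepare procollagen in the endoplasmic reticulum, 6 rose and 1 fell, beside 10.0% and 5.86% of all genes. The median log2 fold change of this list was 0.16. Among the called genes only, the largest was *Serpinh1*, the collagen chaperone HSP47 (0.74, adjusted p = 5.1e-04, edgeR). Next among them were *P3h3* (0.36, adjusted p = 0.0052), a prolyl 3-hydroxylase family member, and *Colgalt1* (0.36, adjusted p = 0.0049), which glycosylates hydroxylysine. *Colgalt2* fell by 0.37 (adjusted p = 0.0027). Of 7 tested genes for procollagen processing, 2 rose: *Adamts2* (1.59, adjusted p = 0.0011), which removes the amino-terminal propeptide, and *Bmp1* (0.61, adjusted p = 0.0034), which removes the carboxy-terminal one.

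Among proteins that bind collagen fibrils, 8 of 18 rose and 0 fell, beside 10.0% and 5.86% of all genes, with a median of 0.59. *Tnc*, the gene of tenascin C, had 1.59 (adjusted p = 4.3e-04, edgeR), *Fn1*, the gene of fibronectin, had 1.58 (adjusted p = 1.3e-04) and *Sparc*, a collagen-binding matricellular protein, had 1.32 (adjusted p = 4.8e-05). Of 6 tested collagen receptors, 3 rose: *Lair1* (1.31, adjusted p = 1.8e-04), an inhibitory receptor of leukocytes, *Ddr2* (0.71, adjusted p = 2.8e-04), a receptor tyrosine kinase for fibrillar collagen, and *Mrc2* (0.62, adjusted p = 0.0018), which takes up collagen fragments.

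Markers of cell types were measured in the same libraries, and their part in the results was not tested. In the joint comparison, 7 of 7 macrophage markers rose, beside 10.0% of all genes called higher and 5.86% called lower. The summed level of the macrophage markers was 102 to 173 CPM in controls and 138 to 525.9 CPM in mutants. Of the pericyte and myofibroblast markers, 3 of 7 rose (*Acta2*, *Tagln* and *Cspg4*), with summed levels of 144 to 236 CPM in controls and 172 to 510 CPM in mutants. The rest of this list was not called. *Pdgfrb* and *Postn* had positive log2 fold changes (adjusted p = 0.011 and 0.016, edgeR). *Rgs5* had a log2 fold change of −0.50 (adjusted p = 0.052, edgeR) and *Notch3* of −0.03 (adjusted p = 0.89, edgeR). Of the fibroblast markers, 2 of 6 tested rose, *Dcn* and *Dpt*, which are also in the list of fibril-binding proteins. Their summed level was 97.5 to 153 CPM in controls and 103 to 253 CPM in mutants, and the defining gene *Pdgfra* had a log2 fold change of 0.12 (adjusted p = 0.59). FM3, the highest mutant for each of the 10 genes, was the highest of all mice for the fibroblast, pericyte and macrophage sums.

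In the same comparison, of the endothelial markers 0 of 7 were called, of the smooth muscle markers 1 of 4 fell, 4 of 5 markers of the thick ascending limb and distal convoluted tubule fell, of the collecting duct markers 3 of 6 fell, of the podocyte markers 4 of 5 fell, and of the proximal tubule markers 1 of 7 rose. Urothelial markers had 0 of 5 called, with a median log2 fold change of 0.34, and summed to 3.58 to 61.0 CPM. Adrenal markers, of which 1 was tested and 0 called, summed to at most 7.98 CPM. Adipose markers, of which 2 were tested and 0 called, summed to 349 CPM in FM3 and to 55.1 to 159 CPM in the other 19 mice. Between male and female controls, where *Col5a2* and the type VI genes differed, 6 of 7 endothelial, 5 of 5 podocyte, 4 of 7 macrophage, 1 of 6 fibroblast (*Pdgfra*, log2 fold change −0.58, adjusted p = 4.4e-04), 2 of 7 pericyte and 2 of 4 smooth muscle markers were also lower in males. Among tubule markers, 4 of 5 of the thick ascending limb and distal tubule and 2 of 6 of the collecting duct were lower in males, and 3 of 7 of the proximal tubule were higher. Of all genes tested between control sexes, 9.02% were called lower in males and 8.75% higher.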

How the data were processed

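Kidney RNA-seq libraries of 20 mice were analysed from the deposited table of raw read counts per gene (24411 symbols, whole numbers). Per the submitters' processing notes, the authors used fastp 0.23.2, STAR 2.7.10b, the mm10 genome, R 4.3.0 and DESeq2. The counting tool, annotation and strand setting are not given in the sources used here. No read was counted for 4576 symbols. Libraries held 11307741 to 19324073 counts, which sets the precision of low genes.

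Groups (sex and genotype) were taken from the labels, and each library is 1 mouse. Genes were filtered with filterByExpr within each comparison, scaled by TMM and tested on the counts with edgeR 4.0.16 (quasi-likelihood, limma 3.58.1, R 4.3.3), with litter as a covariate and Benjamini-Hochberg adjustment over all genes tested. The threshold was 0.01. The joint and interaction fits used the 6 groups of sex and litter as covariates, and the slope on KBW had sex as a covariate. CPM are TMM-scaled, and log2 CPM used a prior count of 2. Correlations had 100000 permutations. Scripts were tested on simulated data.

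All 10 members are named in the joint comparison, within each sex and between control sexes. For the other comparisons the range over the 10 members and single members are given. Of each other list, the genes called in the joint comparison with the largest log2 fold changes were named, at most 3 in each direction. *Loxl3* and *Loxl4*, *Cspg4*, *Pdgfra* and the marker genes named were added after their values were seen. Members, lists and tests were chosen with earlier results of these data known. Alternatives were DESeq2 1.42.0 size factors and Wald test, 2 other filters, other covariates, all mice in 1 fit, other relabellings, and leaving out each mouse. Lengths of 1 transcript per gene were chosen after seeing the data.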

Additional observations from a re-analysis of the deposited data

Results flagged for a closer look

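Within groups of 5 mice, 2 values stood far from the other 4 by Dixon's ratio (critical value 0.71), of 44 groups of values tested, and chance gives about 1 in 20. The *Col12a1* level of female mutant FM3 was 209 CPM, with 67.4 CPM in the next mouse (ratio 0.79). FM3 was also the highest mutant for the other 9 genes and had the highest sum of adipose markers (349 CPM), and the part of these in its level was not tested. The KBW of male control MC5 was 0.896%, with 0.678% in the next male control (ratio 0.74). MC5 had the lowest *Col1a1*, *Col1a2*, *Col3a1*, *Col5a1*, *Col6a1*, *Col6a3* and *Lox* levels of the 10 controls.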

How the results depend on the processing

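No paired analysis was possible because replicate numbers follow accession order and pair no mice across groups, and litter was in the fits instead. The joint count of 6 genes was the same in 5 other settings, beside 7.60% to 10.8% of all genes called higher. It was also 6 with each mouse left out, beside 7.23% to 12.5%. The male count of 6 became 5 with all 20 mice in 1 fit, without *Col5a1*, beside 4.30% of all genes called higher. The female count of 1 became 5 with DESeq2's Wald test, beside 4.38% of all genes called higher. It became 4 without a filter on low counts, beside 0.883%, and 2 without the litter term, beside 0.852%. With all 20 mice in 1 fit it became 5, beside 3.80%. The count of 6 lower in male controls became 1 with all 20 mice in 1 fit, beside 6.18% of all genes called lower. The count of KBW slopes became 2 with DESeq2's Wald test, beside 4.03% of all genes. Leaving out 1 mouse gave 2 to 6 genes in males, beside 0.784% to 8.67% of all genes called higher. It gave 0 to 5 in females, beside 0.0206% to 4.68%. Between control sexes it gave 0 to 6, beside 4.26% to 9.08% called lower. The log2 change of the *Col6a2* to *Col6a1* ratio ran from 0.19 to 0.29 in such sets. Without MM1 and FM4, r with KBW turned negative for *Col1a2* (−0.013), *Col5a1* (−0.073), *Col5a2* (−0.13), *Col6a1* (−0.23), *Col6a2* (−0.27), *Col6a3* (−0.25) and *Lox* (−0.11). The other sign changes came from leaving out 1 mouse, and 0 of 36 concerned a called value. Those ranges were −0.039 to 0.19 for *Col6a1* in the joint comparison and −0.13 to 0.20 for *Col5a2* in males. In females they were −0.36 to 0.10 for *Col6a1*, −0.11 to 0.32 for *Col6a2* and −0.10 to 0.36 for *Col6a3*. Between control sexes, *Col12a1* ranged from −0.084 to 0.086. Between mutant sexes, the ranges were −0.89 to 0.040 for *Col12a1*, −0.49 to 0.15 for *Col1a1* and −0.38 to 0.13 for *Col3a1*. For the sex by genotype term they were −1.09 to 0.40 for *Col12a1*, −0.18 to 0.86 for *Col1a1*, −0.30 to 0.43 for *Col1a2*, −0.32 to 0.56 for *Col3a1*, −0.14 to 0.57 for *Col5a1*, −0.035 to 0.52 for *Col6a3* and −0.19 to 0.87 for *Lox*. For r with KBW they were −0.090 to 0.21 for *Col5a2*, −0.022 to 0.44 for *Col6a1*, −0.061 to 0.35 for *Col6a2* and −0.048 to 0.26 for *Col6a3*. Where a count changed the cause was not tested. Of 1460 values of single genes, 1348 kept their direction and their side of the threshold.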
